A study of Mus musculus with 6 samples.

Results

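The translation initiation and elongation factors are the proteins that load ribosomes onto an mRNA, find its start codon and feed amino acids into the growing chain. Their transcripts were taken by gene name, as every gene model whose name begins with Eif1 to Eif6, Eef1 or Eef2. Models of the Argonaute genes (Eif2c), of the eIF2 kinases (Eif2ak) and of Eif4ebp1 were left out. The rule gave 57 names on 55 of the 37867 gene models in the table, because Eif3i and Eif3k each also carry an older name, and each name had a single model. RNA came from CD4+CD8+ double-positive thymocytes, the stage of development at which T cell receptors are tested for fit to the body's own MHC molecules, sorted from C57bl6 mice that lack the microRNA genes mir181a1 and mir181b1 (knockout) or are wild type. There were 3 libraries of each genotype. The labels give no age, no cell type restriction of the deletion and no other allele, and do not say whether libraries came from separate animals. The deposited table holds 1 FPKM value per genotype (fragments per kilobase of transcript, scaled to library size), so every value below is the authors' pooled value and has no SD. Values of single libraries were not used here, and their depth is unknown.

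Initiation starts when eIF2 brings the initiator tRNA to the small ribosomal subunit, held open by eIF1, eIF1A and eIF3. The eIF4 proteins recognise the cap and unwind the leader, and eIF5 and eIF5B lead to start codon recognition and joining of the large subunit. eEF1A then delivers each aminoacyl-tRNA, the eEF1B complex recharges it with GTP, and eEF2 moves the ribosome along. Thymocytes that have completed proliferation at the double-positive stage are small and have low protein synthesis, and mTOR signalling controls it through eIF4E-binding proteins and the eEF2 kinase. MicroRNAs pair through a short seed with sites in the 3′ UTR of target transcripts and lower their level or translation.

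The deleted genes encode miR-181a and miR-181b, whose mature 5′ arms are shown first because their common seed, bases 2 to 8 in capitals, defines the sites searched for among the factors. The sequences are those of RefSeq (GRCm38.p6).
mmu-miR-181a-5p: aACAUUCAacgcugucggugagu
mmu-miR-181b-5p: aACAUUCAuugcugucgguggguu

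The reverse complement of this seed, TGAATGT, was searched on the sense strand of the 3′ UTR of 1 reference transcript per gene (GENCODE M21, GRCm38). It occurred 9 times in 8 of the 52 factors that the authors tested (15.4%). It occurred in 17.4% of 9070 expressed coding genes and in 15.4% of all 20709 reference 3′ UTRs. The factors with the match were Eif5b, Eif2s1, Eif3j (2 matches), Eif4a2, Eif4e, Eif4e2, Eif4g2 and Eif5a2. The sites of the 4 with the highest log2 ratios are printed with flanking bases, match in capitals. They lie in the 3′ UTRs of Eif3j (RefSeq Eif3j1; chr2:122053117-122053146 and chr2:122056506-122056535, plus strand), of the helicase gene Eif4a2 (chr16:23113904-23113933, plus strand), of the subunit-joining GTPase gene Eif5b (chr1:38052499-38052528, plus strand) and of the cap-binding gene Eif4e2 (chr1:87228698-87228727, plus strand).
Eif3j first site: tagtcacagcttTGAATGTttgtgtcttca
Eif3j second site: gcagtgtgaagcTGAATGTaacacactcaa
Eif4a2: cttaatgaagttTGAATGTtaaataaaatt
Eif5b: atccactacaaaTGAATGTattataagaaa
Eif4e2: tgtgaggtaatcTGAATGTacatgtgctac

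None of the factors with this match passed the threshold of the authors' comparison (q under 0.05) in either direction. Their ratios are set beside those of the other factors as a description, and the difference was not tested. All log2 ratios are knockout over wild type. The 8 with a match had log2 ratios from -0.02 to 0.54 with a median of 0.17, and 6 of 8 were above 0. The other 44 had a median log2 ratio of -0.53, and 6 of 44 were above 0. The model of Ankhd1 and Eif4ebp3, with a log2 ratio of 0.52, is among these 6, and only the 3′ UTR of Ankhd1 was searched for it. Over the 9070 coding genes the medians were 0.09 with the match and -0.33 without it. The 8 also had longer 3′ UTRs (median 4029 against 498 bases) and a lower GC content of the transcript (median 42.9% against 50.8%) than the 44. Once a smooth dependence on GC content and length was taken out, as described below, the medians were -0.09 with the match and -0.19 without it. Then 3 of 8 with the match and 12 of 44 without it were above 0. Over the 9070 coding genes the medians were then 0.05 and -0.01. The part of GC content and UTR length in the difference was not tested. In Eif4g2 the match lies near the end of a long reference isoform, and whether that isoform is the expressed one is not known here. The second match of Eif3j lies at base 4420 of a reference 3′ UTR of 4500 bases. The models of Eif3j, Eif4a2 and Eif4e span 25007, 6191 and 31409 bases, less than the 28052, 6503 and 33517 of their reference transcripts. Whether these models cover all of the matches is not known here. The models of Eif4e2 and Eif5b span 2.67 and 2.29 times their reference transcripts, so reads of neighbouring genes may be part of their ratios.

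**Figure D1:**
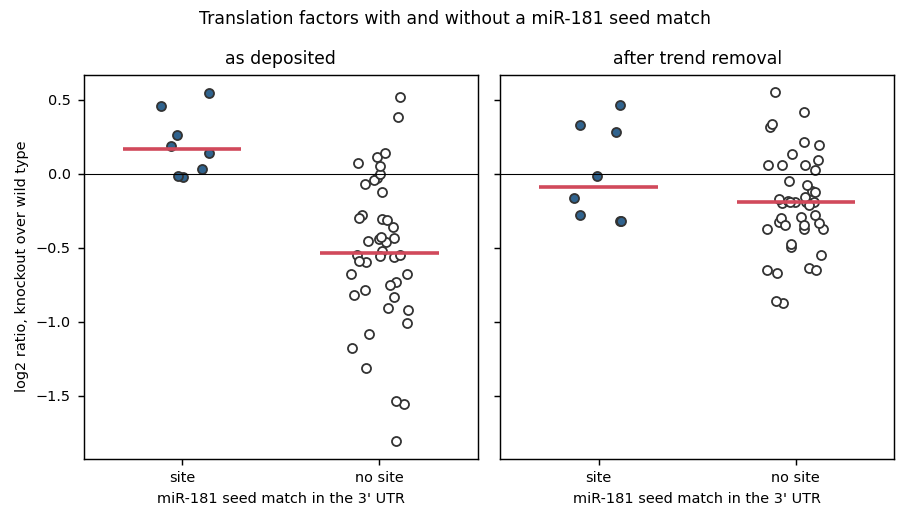
Log2 ratio (knockout over wild type) of the 52 tested translation factors with (8, filled) and without (44, open) a miR-181 seed match in the 3′ UTR of the reference transcript, as deposited (left) and with the GC-length trend taken out (right); red lines are medians. The medians of 0.17 and -0.53 on the left stand at -0.09 and -0.19 on the right.

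Transcripts of several initiation and elongation factors were less abundant in the knockout of mir181a1 and mir181b1. By the authors' deposited table, 14 of 52 tested factors (26.9%) had a q under 0.05 and a lower value in the knockout, and none was higher. Among all 13834 tested models 15.3% were lower and 1.79% higher by the same rule. The factors are abundant, and among models with a mean of at least 5 FPKM 18.9% were lower and 1.9% higher, beside 28.0% of the 50 factors at that level that were lower. At a mean of at least 30 FPKM 20.7% of all models were lower and 1.59% higher, beside 8 of 32 factors (25.0%) that were lower. At an unadjusted p under 0.05 the deposited table had 20 factors lower and 1, Eif3j, higher. The share of all tested models at that threshold was not taken, so these counts show nothing particular to the factors. The median log2 ratio of the factors was -0.44, beside -0.17 over all tested models. Over the 9070 coding genes of at least 1 FPKM, a level all 52 factors reached, the median was -0.25 and 66.1% were below 0. Below 0 were 40 of 52 factors (76.9%), beside 59.6% of all tested models with a finite ratio. With the ratios centred on the median of all models, 6 factors stayed past the threshold, where 10.8% of all models were lower and 3.6% higher, and the median was -0.27. Centring ended the calls of Eif2b4, Eif2b5, Eif3g, Eif4a1, Eif4a3, Eif5a, Eef1b2 and Eef1d. None of the 14 calls held once the dependence of the ratios on GC content and length, given further on, was taken out. On simulated data over 9070 genes 48% of changes of 1 log2 unit and 91% of changes of 2 units were recovered. Recovery for the factors alone was not measured. A lost call does not show that a factor was unchanged, nor that it was changed. The 3 untested factors, Eif2s3y, Eif4e1b and Eef1a2, were listed at 0 in both genotypes. The sources used here do not say how the test statistic was obtained, so whether its p-values measure a spread between libraries is unknown, as is whether it is technical.

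**Figure D2:**
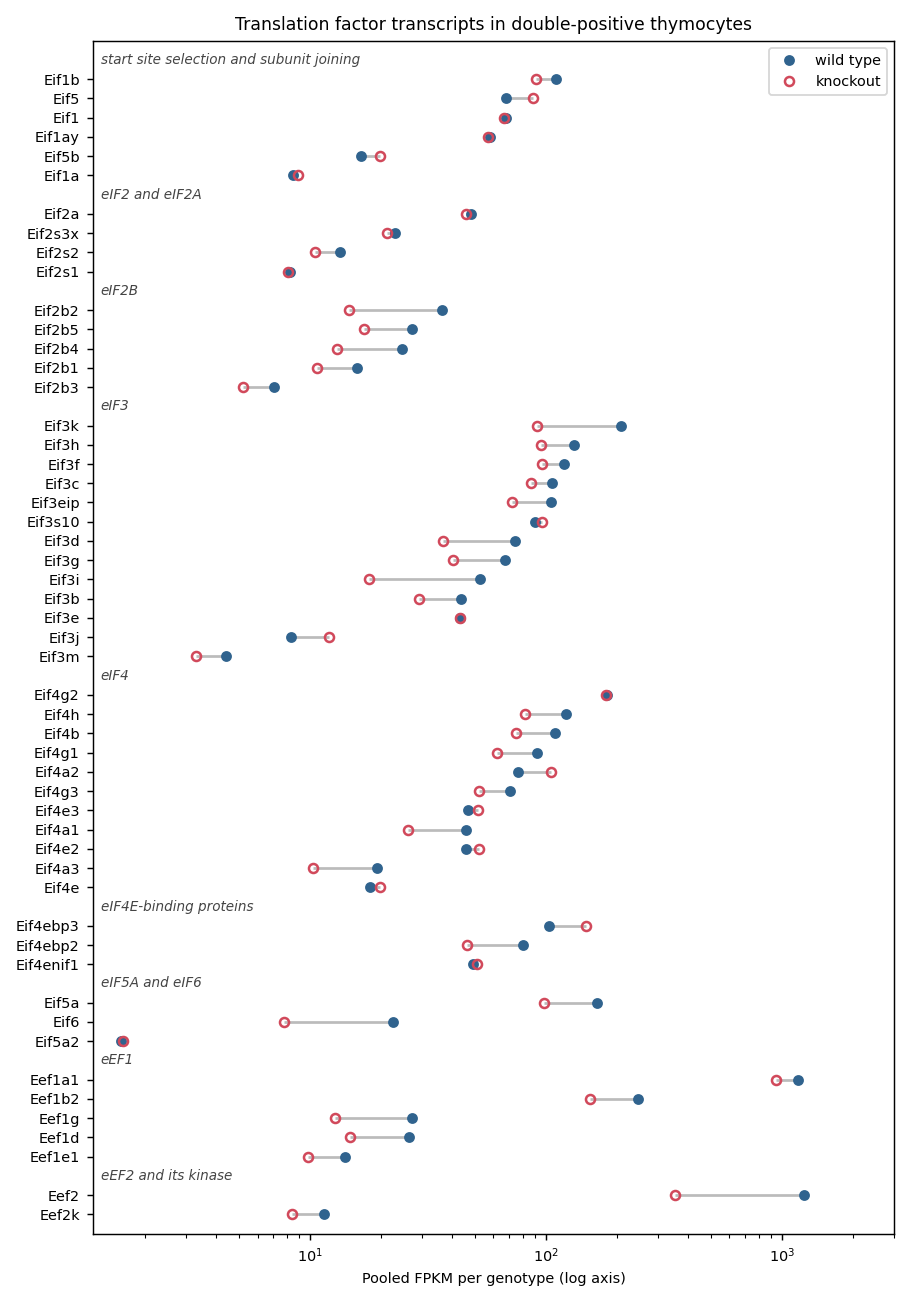
Pooled FPKM of the 52 tested factors in wild type (filled) and knockout (open) on a log axis, grouped by role and ordered by the wild type value. Eef2 falls from 1237 to 354 FPKM, while Eif4g2 and Eif3e stand at nearly the same level in both.

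Eef2, Eef1a1 and Eef1b2 were the most abundant of these transcripts in the wild type, and Eef2 showed the lowest ratio. Eef2, the translocase, stood at 354 FPKM in knockout cells against 1237 FPKM in wild type cells, a 3.50-fold lower level. The model runs over chr10:80639403-80645241 (mm9, coordinates as in the table). Its log2 ratio was -1.81 with a standard error of 0.45 implied by the test statistic (q = 0.000871 listed in the authors' deposited table). Eef1a1, the carrier of aminoacyl-tRNA, stood at 947 FPKM in knockout cells against 1170 FPKM in wild type cells. It did not pass the threshold (log2 ratio -0.30, normal 95% interval from -0.72 to 0.11, q = 0.38 listed in the authors' deposited table). Eef2 thus stood at 1.06 times Eef1a1 in the wild type and at 0.374 times in the knockout. The order of the pair changed between the genotypes, and the difference between the 2 ratios was not tested. Eef1a1 has processed pseudogenes that could share its reads.

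Of the 3 subunits of eEF1B, the exchange factor of eEF1A, 2 fell, beside 15.3% of all tested models. Eef1b2, the catalytic alpha subunit of mammalian eEF1B, stood at 154 against 246 FPKM (log2 ratio -0.67, implied standard error 0.23, q = 0.0281 listed in the authors' deposited table). Eef1d, the delta subunit, stood at 14.8 against 26.3 FPKM (log2 ratio -0.83, implied standard error 0.31, q = 0.0421 listed in the authors' deposited table). Eef1g, the structural gamma subunit, stood at 12.8 against 27.1 FPKM with an implied standard error of 1.06 and did not pass the threshold (q = 0.582 listed in the authors' deposited table). The Eef1g model spans 150066 bases against 11438 in the reference transcript of Eef1g, so it covers neighbouring genes as well. Eef1e1, a scaffold protein of the tRNA synthetase complex, stood at 9.85 against 14.1 FPKM, and Eef2k, the kinase that inhibits eEF2, at 8.40 against 11.5 FPKM. Neither passed the threshold, at q values of 0.307 and 0.738 in the authors' deposited table. Eef2k had a log2 ratio of -0.46 with an implied standard error of 0.64. The 7 tested genes named Eef1 or Eef2 were grouped by name, Eef1e1 and Eef2k included. Of them 3 fell, beside 15.3% of all tested models that were lower. All 7 had a log2 ratio below 0, with a median of -0.67. Below 0 were 59.6% of all tested models and 66.1% of the 9070 coding genes.

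All 13 subunits of eIF3, the largest initiation factor, were tested, and 4 of them fell while none rose. Of all tested models 15.3% were lower and 1.79% higher. Eif3i showed the lowest ratio of all initiation factors at 17.8 against 52.5 FPKM, a 2.94-fold lower level (log2 ratio -1.56, implied standard error 0.31, q = 1.60e-05 listed in the authors' deposited table). Eif3k, the most abundant subunit in the wild type, stood at 92.0 against 208 FPKM (log2 ratio -1.18, implied standard error 0.25, q = 9.86e-05 listed in the authors' deposited table). Eif3d, a subunit that can bind the cap of some mRNAs, stood at 36.8 against 74.1 FPKM (log2 ratio -1.01, implied standard error 0.25, q = 0.000926 listed in the authors' deposited table). Eif3g stood at 40.5 against 67.1 FPKM (log2 ratio -0.73, implied standard error 0.26, q = 0.0329 listed in the authors' deposited table). Eif3i and Eif3g bind each other and Eif3b in the complex, and Eif3b stood at 28.9 against 43.7 FPKM without passing (q = 0.0696 listed in the authors' deposited table).

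The other subunits of eIF3 did not pass the threshold. The scaffold subunit eIF3a, listed under its older name Eif3s10, stood at 96.8 against 89.6 FPKM, and Eif3c at 86.1 against 106 FPKM. Eif3e was nearly level at 43.1 against 43.2 FPKM. Eif3f stood at 96.6 against 120 FPKM, Eif3h at 95.4 against 131 FPKM and Eif3eip (RefSeq Eif3l) at 72.1 against 106 FPKM. The loosely bound subunit Eif3j stood at 12.1 against 8.31 FPKM, the highest log2 ratio of all factors at 0.54 (q = 0.182 listed in the authors' deposited table). Although the protein complex holds 1 copy of each core subunit, the transcript levels per length spanned from 4.39 FPKM (Eif3m) to 208 FPKM (Eif3k) in the wild type and from 3.28 to 96.8 FPKM in the knockout. The models of Eif3m and Eif3c span 6.28 and 2.27 times their reference transcripts. Eif3m sets the low end in both genotypes, and its value may not be the level of that gene alone. Among the other core subunits the lowest were Eif3e at 43.2 FPKM in the wild type and Eif3i at 17.8 FPKM in the knockout.

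The exchange factor eIF2B, which recharges eIF2 with GTP and is blocked when eIF2 is phosphorylated under stress, was lower in 3 of its 5 subunits. By the same rule 15.3% of all tested models were lower. Eif2b2 stood at 14.6 against 36.3 FPKM, a 2.48-fold lower level (log2 ratio -1.31, implied standard error 0.28, q = 6.36e-05 listed in the authors' deposited table). The delta subunit Eif2b4 stood at 13.0 against 24.6 FPKM (log2 ratio -0.92, implied standard error 0.29, q = 0.0122 listed in the authors' deposited table) and the catalytic epsilon subunit Eif2b5 at 17.0 against 27.2 FPKM (log2 ratio -0.68, implied standard error 0.26, q = 0.0478 listed in the authors' deposited table). Eif2b1 (10.7 against 15.8 FPKM) and Eif2b3 (5.19 against 7.02 FPKM) did not pass, at q values of 0.168 and 0.533 in the authors' deposited table. The median log2 ratio of the 5 was -0.68, and all 5 were below 0. So were 59.6% of all tested models and 66.1% of the 9070 coding genes.

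The subunits of eIF2 itself, the carrier of initiator tRNA, did not pass the threshold. Eif2s1, whose product is the phosphorylated alpha subunit, stood at 8.10 against 8.23 FPKM, Eif2s2 at 10.5 against 13.4 FPKM and Eif2s3x at 21.2 against 23.0 FPKM. Eif2a, an unrelated factor for alternative initiation, stood at 45.7 against 48.0 FPKM (log2 ratio -0.07, implied standard error 0.39, q = 0.959 listed in the authors' deposited table). The median log2 ratio of these 4 was -0.10 as deposited and turned to 0.07 when centred, so no direction is given for them. The model of Eif2s2 spans 12.2 times its reference transcript and has an implied standard error of 0.62. Taken with eIF2B, 3 of 9 tested genes fell and none rose, beside 15.3% of all tested models that were lower.

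**Figure D3:**
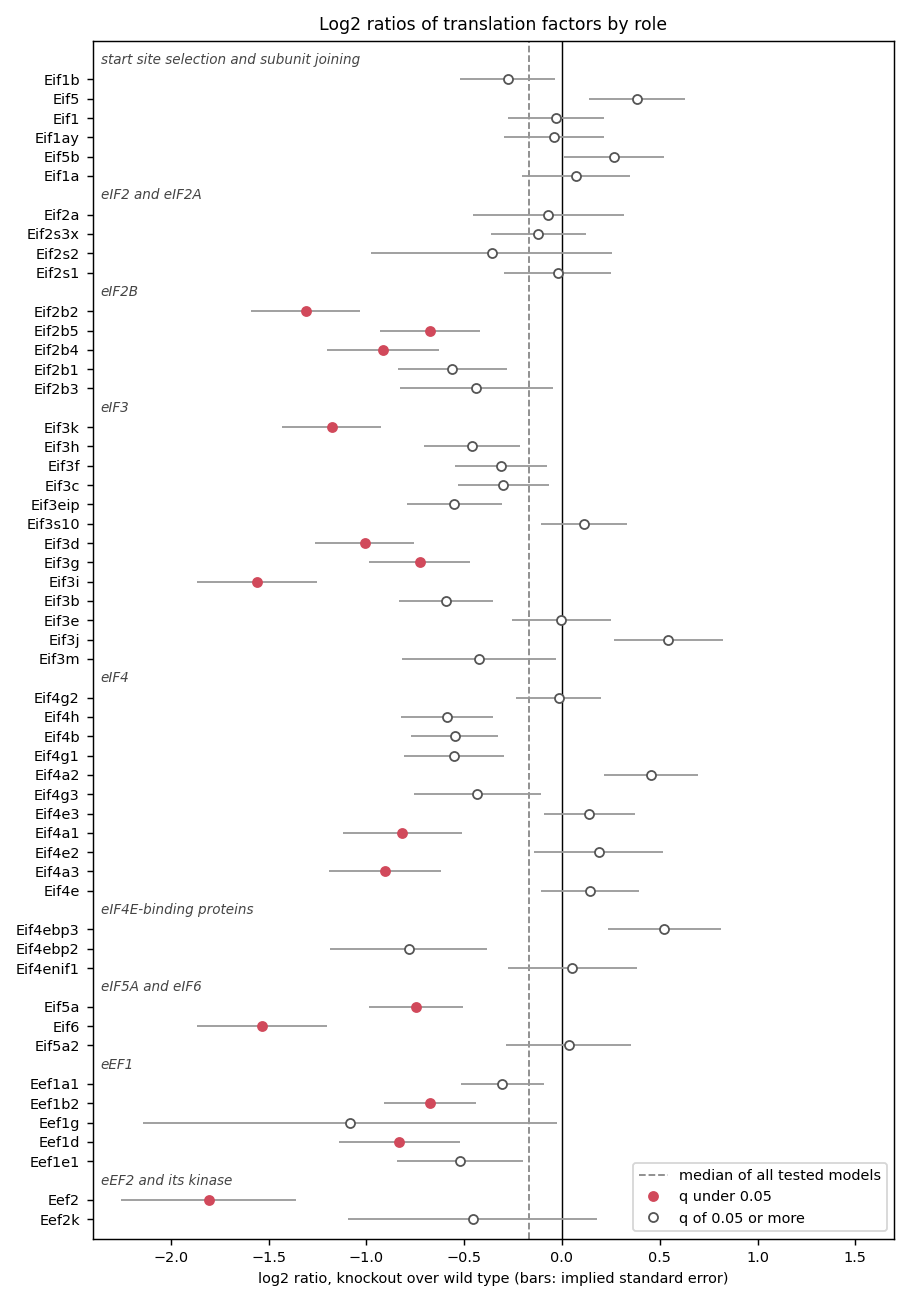
Log2 ratio (knockout over wild type) of the 52 tested factors with the implied standard error as bars, grouped by role; filled points had a q under 0.05 in the authors' table and the dashed line is the median of all tested models (-0.17). The 14 filled points all lie below the dashed line. None belongs to the start site group, the group of eIF2 and eIF2A, or the eIF4E-binding group.

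Within eIF4, 2 of the 3 RNA helicases fell, beside 15.3% of all tested models. Eif4a1, the main helicase of cap-dependent initiation, stood at 26.1 against 45.9 FPKM (log2 ratio -0.82, implied standard error 0.30, q = 0.0432 listed in the authors' deposited table). Its paralogue Eif4a2 stood at 105 against 76.3 FPKM (log2 ratio 0.46, implied standard error 0.24) and did not pass the threshold (q = 0.201 listed in the authors' deposited table). Eif4a1 thus stood at 0.602 times Eif4a2 in the wild type and at 0.249 times in the knockout, and the difference between the 2 log2 ratios was not tested. Eif4a3, a helicase of the exon junction complex, stood at 10.3 against 19.3 FPKM (log2 ratio -0.91, implied standard error 0.29, q = 0.0144 listed in the authors' deposited table). The sum over the 3 helicases was 141 FPKM in knockout cells against 142 FPKM in wild type cells. The Eif4a1 model spans 31627 bases against 5381 in its reference transcript, so part of its reads may come from neighbouring genes.

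The remaining eIF4 genes did not pass the threshold. The cap-binding genes Eif4e (19.8 against 17.96 FPKM), Eif4e2 (52.1 against 45.7 FPKM) and Eif4e3 (51.4 against 46.7 FPKM) had log2 ratios from 0.14 to 0.19. Among the scaffold genes, Eif4g1 stood at 62.3 against 91.4 FPKM, Eif4g3 at 52.0 against 70.1 FPKM and Eif4g2, which lacks the eIF4E-binding part, at 179 against 182 FPKM. The log2 ratio of Eif4g2 was -0.02 with an implied standard error of 0.22 (q = 0.989 listed in the authors' deposited table). The helicase cofactors Eif4b (74.7 against 109 FPKM) and Eif4h (81.2 against 122 FPKM) were not called, at q values of 0.0728 and 0.0672 in the authors' deposited table. In all, 2 of 11 tested eIF4 genes fell and none rose, a share near that of all tested models (15.3% lower). The models of Eif4e2 and Eif4h span 2.67 and 2.06 times their reference transcripts.

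None of the genes for the 3 proteins that bind eIF4E outside the cap complex passed. Of all tested models 15.3% were lower and 1.79% higher, so this count shows nothing particular to the 3. Eif4ebp2, an mTOR-controlled repressor of eIF4E, stood at 46.6 against 80.2 FPKM (log2 ratio -0.78, implied standard error 0.40, q = 0.187 listed in the authors' deposited table). Eif4enif1, the transporter of eIF4E, stood at 51.1 against 49.3 FPKM. The model that carries the name Eif4ebp3 also carries Ankhd1 and stood at 149 against 103 FPKM (log2 ratio 0.52, implied standard error 0.29, q = 0.23 listed in the authors' deposited table), and reads of the 2 genes cannot be told apart in it.

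Start site selection and subunit joining showed no called gene among 6, beside 15.3% of all tested models lower and 1.79% higher. The 6 had a median GC content of 42.7%, and 0.618% of coding genes under 45% GC were lower. The count shows nothing particular to this group. Eif5, the GTPase activator of eIF2, stood at 88.3 against 67.6 FPKM, and Eif5b at 19.8 against 16.4 FPKM. The scanning factors Eif1 (66.2 against 67.6 FPKM), Eif1b (90.9 against 110 FPKM), Eif1a (8.92 against 8.48 FPKM) and Eif1ay (56.6 against 58.2 FPKM, RefSeq Eif1ax on chromosome X) lay close to 0 in log2 ratio, from -0.28 to 0.07. Eif1b, the most abundant of them in the wild type, had a log2 ratio of -0.28 with an implied standard error of 0.24 (q = 0.525 listed in the authors' deposited table). The median log2 ratio of the 6 was 0.02 as deposited.

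Eif5a and Eif6 fell. Eif5a, a factor with the modified lysine hypusine that helps ribosomes through difficult stretches, stood at 98.1 against 165 FPKM (log2 ratio -0.75, implied standard error 0.24, q = 0.015 listed in the authors' deposited table). Eif6, which keeps the large subunit from joining early, stood at 7.80 against 22.6 FPKM, a 2.90-fold lower level (log2 ratio -1.53, implied standard error 0.33, q = 0.000106 listed in the authors' deposited table). Eif5a2, the paralogue of Eif5a, was scarce at 1.62 against 1.58 FPKM.

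The summed level of the 55 factors was 3768 FPKM in knockout cells against 5566 FPKM in wild type cells, or 1.27% and 1.54% of the FPKM of all models. The FPKM of all models summed to 297352 and 360688, a ratio of 0.824, against 0.677 for the factors. Eef2 made up 49.1% of the difference in their sum. Without Eef2 the ratio of the sums was 0.789. In the wild type the order by level was Eef2, Eef1a1, Eef1b2 (246 FPKM), Eif3k (208 FPKM), Eif4g2 (182 FPKM) and Eif5a (165 FPKM). In the knockout it was Eef1a1, Eef2, Eif4g2 (179 FPKM), Eef1b2 (154 FPKM), the model of Ankhd1 and Eif4ebp3 (149 FPKM) and Eif4a2 (105 FPKM). No spread over libraries was used here to tell neighbours in these orders apart. Fewer cells with a transcript and less of it per cell cannot be told apart in such bulk samples.

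The factors' ratios ran with the base composition of their transcripts. Across the 52 factors, Spearman's rho between the log2 ratio and the GC content was -0.785, and across the 9070 coding genes it was -0.763. These are descriptions across genes of the same libraries, not independent replicates. The 14 lower factors had a median GC content of 54.4%, from 46.2% (Eef1b2) to 57.9% (Eif6), and the other 38 had a median of 46.8%. No factor under 45% GC was lower, of 17, beside 0.618% of all coding genes in that range. Between 45% and 50%, 2 of 10 factors were lower, Eif4a1 and Eef1b2, beside 3.05% of all. From 50% to 55% it was 7 of 19, beside 17.8% of all, and at 55% or more 5 of 6, beside 58.3% of all. The exception among the last 6 was Eif3b.

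**Figure D4:**
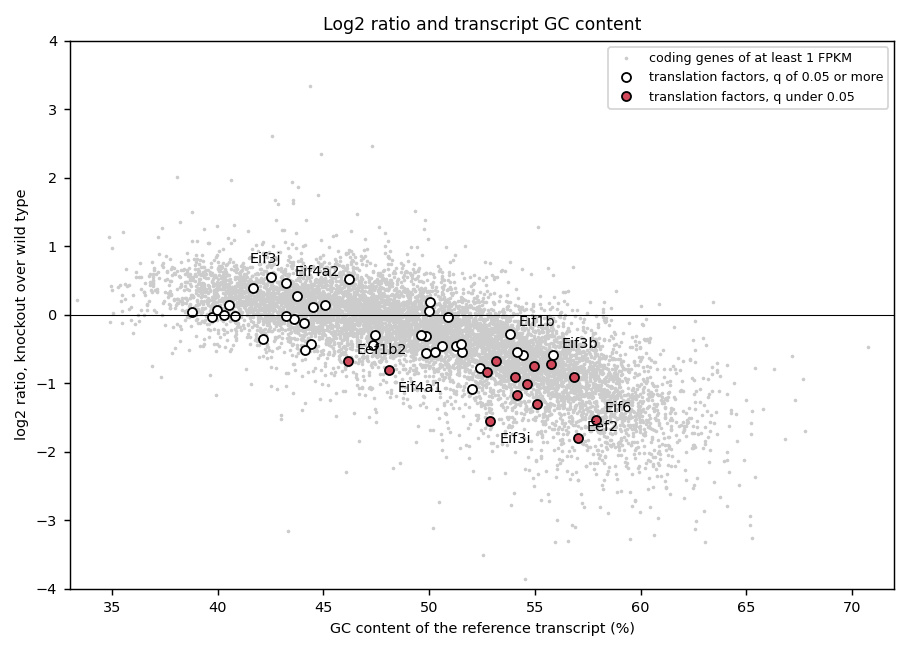
Log2 ratio (knockout over wild type) against the GC content of the reference transcript for 9070 coding genes of at least 1 FPKM (grey; 6 lie outside the axes) and the 52 factors (circles, filled where q was under 0.05). Ratios fall with GC content in both, and Eef1b2, Eif4a1 and Eif3i lie toward the lower edge of genes of like GC content.

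A smooth trend of the log2 ratio with GC content and transcript length was therefore fitted over the 9070 coding genes and removed. Then no factor was past the threshold, with a smallest adjusted p of 0.138 (Eif3i, Benjamini-Hochberg over the 9070 genes, from the implied standard errors). Of all fitted genes 0.981% were then lower and 0.86% higher. At an unadjusted p under 0.05, 4 factors were lower (Eif3i, Eif4a1, Eef1b2 and Eef1e1) and 1, Eif1b, was higher. The shares of 0.981% and 0.86% are for the adjusted p. The share of fitted genes at the unadjusted threshold was not taken, so these counts show nothing particular to the factors. Eef2 went from -1.81 to -0.87 (adjusted p of 0.499), Eif3i from -1.56 to -0.86 and Eif6 from -1.53 to -0.34 (adjusted p of 0.911). Eef1b2 was little moved, from -0.67 to -0.65 (adjusted p of 0.146), as was Eif4a1, from -0.82 to -0.67 (adjusted p of 0.363). Eif2b4, Eif3g and Eif5a turned to 0.06, 0.31 and 0.10. The median of the 52 factors was -0.19, with 37 of them (71.2%) below 0, beside 49.7% of all fitted genes. The 7 genes named Eef1 or Eef2 all stayed below 0, with a median of -0.64, the value of Eef1e1. They were grouped by name and hold Eef1e1, Eef2k and the overlong model of Eef1g. The 45 tested genes named Eif had a median of -0.17 with 30 below 0. Whether the trend is technical or goes with the genotype cannot be told apart in this table.

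**Figure D5:**
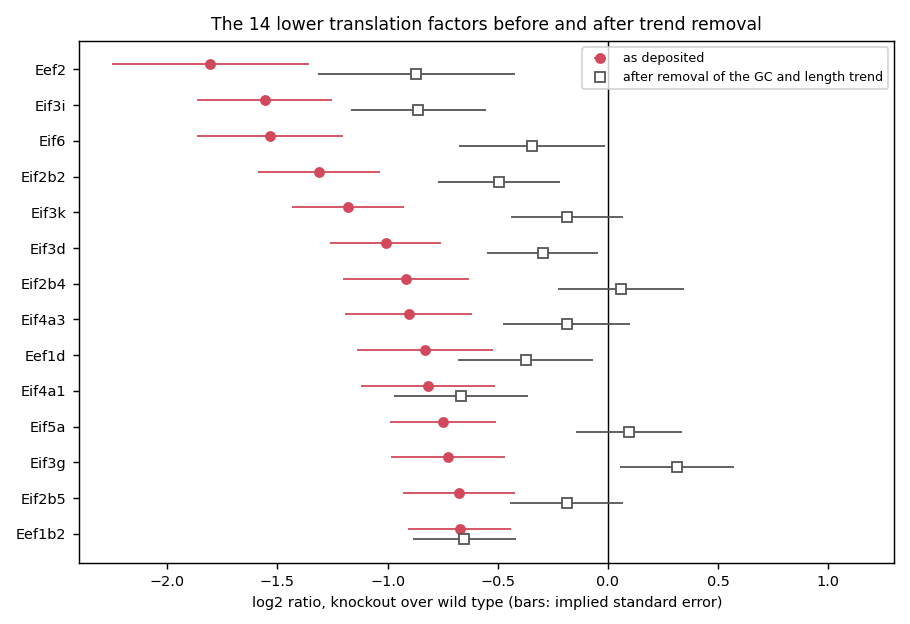
Log2 ratio (knockout over wild type) of the 14 lower factors as deposited (circles) and with the GC-length trend taken out (squares), with the implied standard error as bars. Eef1b2 and Eif4a1 move little, Eef2 and Eif3i move up to -0.87 and -0.86, and Eif2b4, Eif3g and Eif5a cross 0.

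Transcripts known from the literature to begin with a terminal oligopyrimidine tract, which ties their translation to mTOR, were set beside the others. Of these 9 genes (Eef1a1, Eef1b2, Eef1d, Eef1g, Eef2, Eif3e, Eif3f, Eif3h and Eif4b), 3 fell and none rose, and their median log2 ratio was -0.55. Of the other 43 tested factors 11 fell, and their median was -0.42. Over all tested models 15.3% were lower and the median was -0.17. After removal of the trend the medians were -0.37 and -0.19. Nothing particular to the class is claimed from these values.

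Other genes of the translation pathway, from a list of 44 genes, were found in 42 models, of which 40 were tested. Of these, 6 fell and none rose, a share near the 15.3% of all tested models that were lower, and the median log2 ratio was -0.07, above the -0.17 of all models. The counts show nothing particular to the list, and the 6 are named as a description. The lowest was Dohh, which completes the hypusine of eIF5A, at 2.71 against 15.2 FPKM (log2 ratio -2.49, implied standard error 0.41, q = 1.32e-07 listed in the authors' deposited table). Gcn1l1, which activates the eIF2 kinase Gcn2, stood at 5.87 against 14.2 FPKM, and Eefsec, the elongation factor for selenocysteine, at 13.7 against 31.9 FPKM. Rps6kb2, an S6 kinase, stood at 11.4 against 24.1 FPKM, the poly(A)-binding gene Pabpc4 at 3.22 against 7.27 FPKM and the eIF4E kinase gene Mknk2 at 39.5 against 93.2 FPKM. Their GC contents lay from 54.1% (Pabpc4) to 62.5% (Dohh), and none of the 6 passed after removal of the trend. The 4 eIF2 kinases did not pass, nor did Eif4ebp1 (1.65 against 3.67 FPKM, q = 0.053 listed in the authors' deposited table) or Pdcd4, an inhibitor of eIF4A, at 181 against 120 FPKM (q = 0.0559 listed in the authors' deposited table). Pabpc1, the main poly(A)-binding protein of the cytoplasm, stood at 163 against 171 FPKM.

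The labelled cell type was checked on its markers. All 8 double-positive markers were abundant in both genotypes, from 162 FPKM in knockout and 134 FPKM in wild type cells (Rag2) to 1241 and 1683 FPKM (Cd8b1). Among B cell markers Cd79b stood at 15.7 against 20.1 FPKM, and Cd79a, Ms4a1 and Pax5 were each under 0.22 FPKM. The 4 of 5 myeloid markers found summed to 1.2 FPKM in knockout and 2.36 FPKM in wild type cells. A lower value in the knockout was also seen in 59.6% of all tested models. Of the myeloid markers Itgam, at 1.02 against 2.11 FPKM, was called lower (q = 0.0413 listed in the authors' deposited table). Csf1r, Itgax and Cd14 were not tested, and Cd14 was at 0 in both. The 3 erythroid markers found summed to 0.67 and 1.35 FPKM, and the 3 of thymic epithelium and 2 of NK cells to under 0.07 FPKM each. The part of such cells in the factors' ratios was not tested.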

How the data were processed

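RNA of 6 libraries was sequenced, 3 per genotype, grouped by the genotype in the labels. Cells were sorted, RNA was extracted with Trizol or a column kit, and TruSeq RNA libraries were made, per the labels' protocols. TopHat2 and mm9 are named in the submitters' processing notes, without versions. The sources used here do not name the counter, the annotation or the test, nor how multiply matching reads were divided.

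For each gene model, the deposited columns were 1 pooled FPKM per genotype, a log2 ratio (wild type over knockout), a test statistic with its p-value and q-value, and a status, per the file headers. The deposited q-values were Benjamini-Hochberg values over the 13834 tested models (largest difference 1.89e-06). FPKM does not correct for base composition, and a change of abundant transcripts moves all other values.

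Signs were turned so that ratios are knockout over wild type. Its standard error is the ratio divided by the test statistic. No test was run on libraries. The lists and the members were chosen with earlier results of these data known. Statistics are given for every called factor, the most abundant factor of each role, and Eif4ebp2 and Eef2k (Eif2s3y was untested). Other factors are given by their levels, and where one of them has a q-value or ratio it was added after the values were seen. From the pathway list, called genes are named, and uncalled ones named there were chosen after their values were seen.

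GC content, length and 3′ UTR came from 1 GENCODE M21 transcript per gene, by APPRIS rank and then coding length, with older names matched through RefSeq. All 52 tested factors had one, and for the model of Ankhd1 and Eif4ebp3 it was that of Ankhd1. Transcripts over 1.2 times the span of their model were left out. Python 3.11.15 was used with statsmodels 0.14.6 for a robust regression on cubic splines (5 degrees of freedom each) of GC content and log2 length, over coding genes of at least 1 FPKM. On simulated data for this comparison with 9070 genes, 48% of changes of 1 log2 unit and 91% of changes of 2 units were recovered.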

Additional observations from a re-analysis of the deposited data

How the results depend on the processing

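The count of 14 lower factors was 6 with ratios centred on the median of all models, 0 with the GC-length trend taken out and 6 at a q under 0.01. It lay between 12 and 17 with a minimum mean of 5 FPKM, a q under 0.1, models with 1 name, and, chosen after seeing the data, without the model of Ankhd1 and 4 models over 3 times the span of the reference transcript. A minimum mean of 1 FPKM and FPKM summed over the models of a name could not move it, since no tested factor was below that mean and each name had 1 model. No factor was called higher under any of these. The shares of all models at a q under 0.01 and under 0.1 were not taken, so those counts are descriptions only. The median log2 ratio of -0.44 moved to -0.27 when centred and to -0.19 after removal of the trend, and lay between -0.45 and -0.39 otherwise, a pseudocount of 1 included. Of 21 factors with full statistics, centring ended the call of 8 and turned Eif2a to 0.10 and Eif4g2 to 0.15, both uncalled. Removal of the trend ended all 14 calls and turned the called Eif2b4 (to 0.0586), Eif3g (to 0.31) and Eif5a (to 0.10) and the uncalled Eif1b (to 0.55). The trend was fitted on fewer models, 9070. No paired analysis was possible because the table holds 1 value per genotype, and for the same reason no library could be left out. Depth is unknown, so its limit on these values cannot be given.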
